A study of Rattus norvegicus with 12 samples.

Results

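The genes described here encode pore-forming subunits and part of the accessory subunits of the voltage-gated sodium and calcium channels and of the potassium channels in primary cortical neuroglial cultures of the rat. The beta and gamma subunits of calcium channels are not among them, whereas Kcnrg, a regulator outside the channel families, is. The genes were taken by name, as every gene whose symbol begins with Kcn, Cacna, or Scn followed by a digit, and 120 names in the deposited tables fitted that rule. Of these, 83 had a mean level of at least 1 TPM (the TPM unit is a read share corrected for transcript length and scaled to the same total in every library) over the 12 libraries and were tested, among 12861 genes tested in all. The other 37 lay under that level and 7 of them were listed at 0 in all 12 libraries. Just inside the limit lay Kcnab3 at 1.07, Scn9a at 1.18 and Kcnk12 at 1.24 TPM, and just outside it Kcng2 at 0.742 and Kcnk5 at 0.714 TPM.

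Sodium channels carry the rising phase of the action potential, and potassium channels bring the membrane back and hold it at rest. Most of these channels are built from a pore-forming alpha subunit, whose family sets voltage dependence and speed, and from smaller partners that govern trafficking and gating. Calcium channels couple the same voltage change to transmitter release, to dendritic signalling and to transcription, which is why a change in the make-up of either family can alter how a neuron fires and how much calcium it takes up. In cortical cultures most of these genes belong to neurons, whereas the inward rectifier Kcnj10 is the classical potassium channel of astrocytes.

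The cultures came from the cerebral cortex of newborn Wistar rats with no genetic change named and were used on day 10 in vitro. All groups had received cytosine arabinoside early in culture, which limits dividing glia. RNA was taken 4 h after the addition of 1 of 3 products of human glial progenitor cells derived from induced pluripotent stem cells. One product was extracellular vesicles (EV, 10 µg/mL). Another was the secreted proteins of 3 to 100 kDa (15 µg/mL), and the last was the whole secretome (45 µg/mL). An intact control received none of them. Each of the 4 groups had 3 libraries. The doses differ between products, so differences between products are also differences of dose. The study's methods speak in general of repeats on unrelated cultures, and a day effect was taken out of its plot of control and EV libraries. Nothing in the labels or methods ties a library to a plating or a day, and where libraries share one the p-values measure only the spread between these libraries.

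The deposited values carry no counts and the sequencing depth is unknown. Neuronal, astrocytic and oligodendroglial markers were all present. The summed level of 8 markers of oligodendrocytes and their precursors lay between 183 and 236 TPM in control and 193 and 232 in EV. It lay between 124 and 189 TPM with the proteins and 238 and 265 with the secretome, the latter above every library of the other groups. None of the 7 of these markers tested passed against control. The summed level of 8 neuronal markers lay between 3335 and 3644 TPM in control, 3251 and 3677 in EV, 2848 and 3483 with the proteins and 2782 and 3598 with the secretome. The summed level of 8 astrocytic markers lay between 1019 and 1465 TPM in control, 1276 and 1698 in EV, 1216 and 1613 with the proteins and 1407 and 1796 with the secretome. Among them Gfap read 85.1, 361 and 128 TPM in control, 491, 617 and 362 with EV, 242, 447 and 310 with the proteins and 271, 635 and 408 with the secretome, with differences of 1.59, 1.05 and 1.40 that did not pass (adjusted p = 0.512, 0.268 and 0.159). No microglial marker exceeded 2.67 TPM in any library and no fibroblast marker 1.81 TPM. Of all markers, Nefm was higher with the proteins (by 0.79, adjusted p = 0.0162) and the secretome (by 0.72, adjusted p = 0.0354), and Pdgfrb was lower with both. Their part in the differences of the channel genes was not tested. In bulk RNA, fewer cells of a type and less RNA per cell cannot be told apart.

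Within the groups, 1 control library stood apart. Control library 2 held the lowest control value for 63 of the 83 channel genes (75.9%, against 41.6% of all genes), and its median deviation from the control mean was -0.29 on the log2 scale. EV library 1 held the lowest EV value for 46 of the 83 (55.4%, against 43.2% of all genes), and secretome library 2 held the lowest secretome value for 48 (57.8%, against 32.8%). The muscarine-sensitive channel gene Kcnq3 shows the size of it, with 36.7, 12.003 and 40.9 TPM in the 3 control libraries. Without control library 2 the median difference from control over the 83 genes went from -0.02 to -0.19 for EV (68 of 83 below zero), from -0.06 to -0.24 for the proteins (62 of 83) and from -0.19 to -0.33 for the secretome (61 of 83), while the medians of all genes were 0.00, -0.01 and 0.00. Kcnq3 moved the most, and its differences are given both ways with the other Kv7 genes. Control library 2 was low for most of the channel genes, so leaving it out lowers their differences from control. Medians without EV library 1 or secretome library 2, which were low as well, are not given here.

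**Figure D1:**
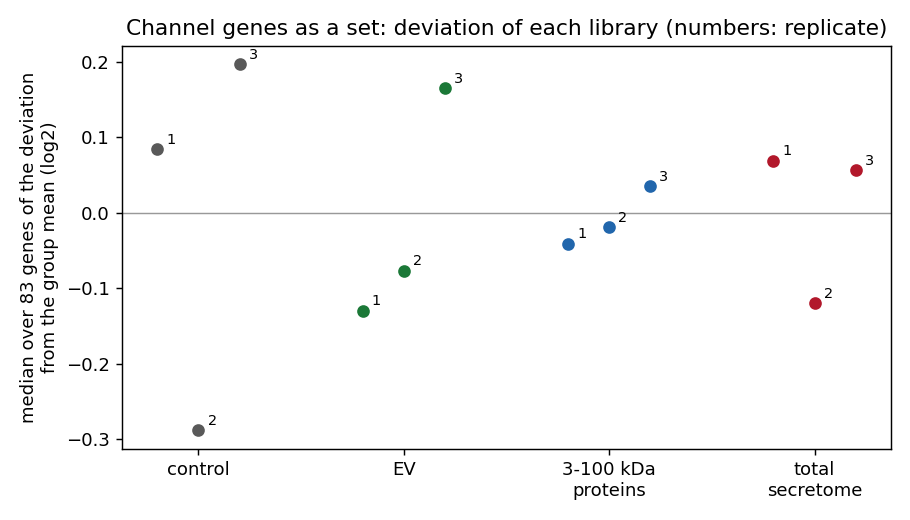
Median, over the 83 channel genes, of each library's deviation from its group mean (vertical axis, log2 of TPM + 1 after rescaling), with groups along the horizontal axis and numbers naming the replicate. Control library 2 lies at -0.29 and the 3 protein libraries lie within 0.05 of zero.

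In the intact cultures the highest levels belonged to calcium and sodium channel subunits. Cacna2d1, the alpha2delta subunit that carries calcium channels to the presynaptic membrane and binds gabapentin, stood at 85.7 ± 26.2 TPM (SD, n = 3). Scn3b, a sodium channel beta subunit, stood at 81.5 ± 5.69 TPM, and Scn2a, the sodium channel alpha subunit of immature axon initial segments, at 78.6 ± 14.5 TPM. These first 3 levels did not differ beyond their spread. Below them lay the Kv4-binding protein Kcnip1 at 43.7 ± 2.17 TPM and Kcnmb4, the neuronal beta subunit of the BK channel, at 38.9 ± 6.97 TPM. At the other end lay genes that later took part in the differences, with Kcna1 at 2.46 ± 0.870 TPM and Kcns3 at 1.85 ± 0.235 TPM.

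**Figure D2:**
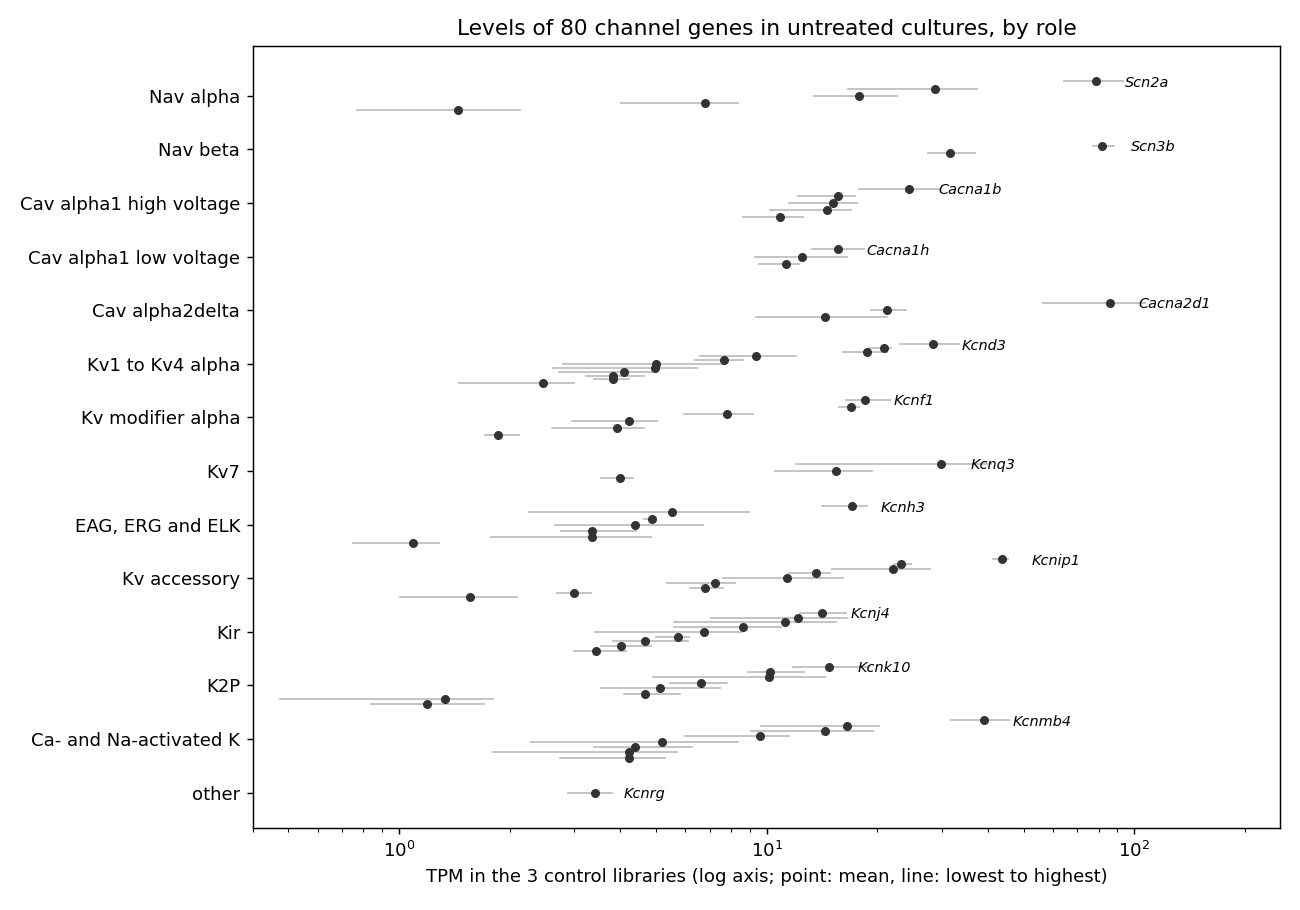
Level of 80 of the 83 channel genes in the 3 control libraries (horizontal axis, TPM, log scale), grouped by role (vertical axis); points are means, lines run from the lowest to the highest library and the highest gene drawn in each role is named. Cacna2d1, Scn3b and Scn2a reach 85.7, 81.5 and 78.6 TPM, whereas most potassium channel genes lie under 30 TPM.

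The first question was whether the vesicles changed the channel genes. None of the 83 passed the test in EV against control at an adjusted p of 0.05 in limma, where 0.428% of all genes passed, and the lowest adjusted p was 0.619. At an unadjusted p of 0.05, 3 of the 83 passed (3.61%, against 4.08% of all genes), namely Kcnj12, Kcnrg and Kcna1. The groups did not overlap for 4 genes (4.82%, against 5.09% of all genes). The median difference was -0.02, beside 0.00 over all genes. The 95% interval of the difference lay within 1 log2 unit on either side of zero for 72 of the 83, so that changes of that size were bounded for most of the list and smaller ones were not.

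The 3–100 kDa proteins gave 6 calls among the 83 genes (7.23%, against 6.99% of all genes). The genes that rose (5, where 5.04% of all genes rose) included Kcna1, Kcnk3, Kcna4 and Kcns3, and Scn3b fell (1 gene, where 1.95% fell). At an unadjusted p of 0.05 there were 16 genes, 19.3% against 19.8% of all genes. The groups did not overlap for 22 of the 83 genes, 26.5% against 20.3% of all genes. As a class, then, the share of channel genes called was close to that of all genes. The median difference was -0.06, beside -0.02 over all genes.

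The total secretome also gave 6 calls, 7.23% against 4.13% of all genes. The genes that rose (5, where 3.25% of all genes rose) included Kcna1, Kcna4, Kcns3 and Kcnj4, and Scn3b fell (1 gene, where 0.879% fell). There were 15 genes at an unadjusted p of 0.05, 18.1% against 16.8% of all genes, and 16 whose groups did not overlap, 19.3% against 20.1%. The median difference was -0.19 with 55 of 83 genes below zero, beside -0.01 over all genes. The comparisons with control share the same 3 control libraries, so the values of each are set side by side for each gene and their likeness is not read as a result.

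These counts depended on the fit. When each comparison was fitted on its own 6 libraries, 3 genes passed for the proteins, Kcna1 and Kcnk3 among them, and 2 for the secretome, Kcna1 among them (3.61% and 2.41% of the 83, beside 2.85% and 1.88% of all genes in the same fits). With the replicate number as a block in those fits 1 gene passed for each (1.20%, beside 0.661% and 0.676% of all genes). With the block in the fit of all 12 libraries 8 and 9 genes passed (9.64% and 10.8%, beside 9.66% and 6.60% of all genes). The block takes same-numbered libraries as pairs, and for the proteins and control their deviations were not all correlated above 0.1. Leaving out control library 1 left 3 calls for each product, as did leaving out protein library 2 or 3, or any single secretome library (3.61% of the 83, beside 3.11% to 3.99% of all genes for the proteins and 1.58% to 3.00% for the secretome). Without control library 2 there were 5 calls for each product (6.02%, beside 5.64% and 3.69% of all genes), Kcna4 being lost for both (adjusted p = 0.0593 and 0.0512) and Kcns3 for the proteins (0.0579), while Kcnj4 passed for the proteins (0.0391).

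**Figure D3:**
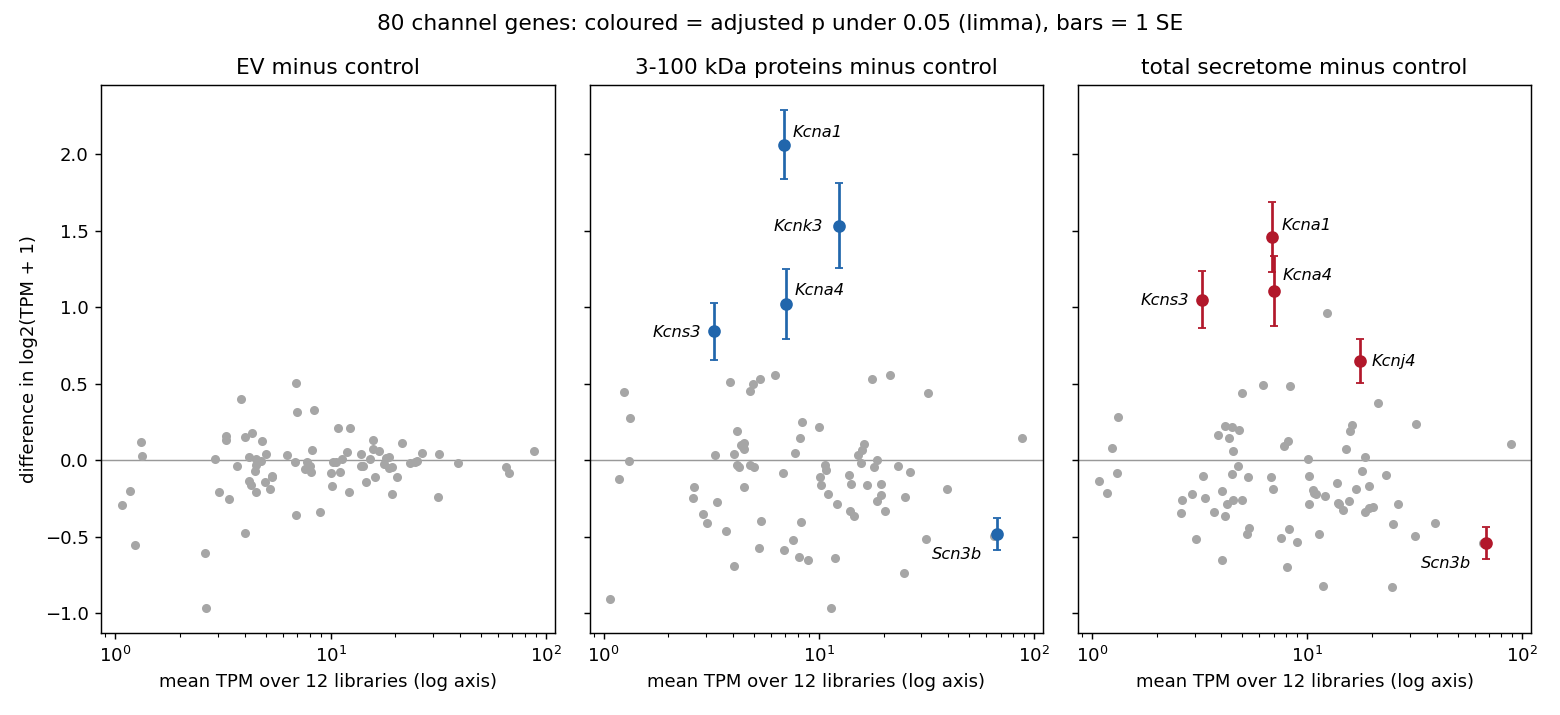
Difference from control in log2(TPM + 1) for 80 of the 83 channel genes (vertical axis) against their mean level over 12 libraries (horizontal axis, TPM, log scale), for EV, the 3–100 kDa proteins and the total secretome; coloured points passed an adjusted p of 0.05 and bars are 1 SE. No gene is coloured for EV, and for the proteins and the secretome the coloured genes run from Kcna1 at 2.06 and 1.46 down to Scn3b at -0.48 and -0.54.

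Among the sodium channel beta subunits, which tune gating and act as adhesion molecules on axons, Scn3b fell with the proteins and with the secretome. Its level was 88.0, 77.4 and 79.1 TPM in control, 71.8, 82.9 and 76.0 with EV, 61.3, 55.4 and 54.2 with the proteins and 58.3, 49.4 and 57.1 with the secretome. The 3 protein and 3 secretome libraries all lay below the control and EV libraries. Scn3b fell by 0.48 ± 0.10 (SE, log2) with the proteins (adjusted p = 0.0192) and by 0.54 ± 0.10 with the secretome (adjusted p = 0.0150). Each of these calls was lost in 6 of 18 alternatives, with adjusted p up to 0.250 and 0.115, among them the fits without control library 1 or 3.

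Scn2b, which is disulphide-linked to the alpha subunit, read 30.2, 36.8 and 27.5 TPM in control and 37.6, 34.9 and 22.8 TPM with EV. With the proteins it read 23.7, 19.3 and 12.7 TPM and with the secretome 20.0, 14.0 and 17.4 TPM. Neither product overlapped control, but the differences of -0.74 and -0.83 did not pass (adjusted p = 0.0734 and 0.0642). With the replicate block in the fit of 12 libraries the secretome value passed (adjusted p = 0.0444), and it did not in the other 17 alternatives (up to 0.251). The protein value passed without protein library 1 (adjusted p = 0.0494) and in no other alternative (up to 0.265).

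None of the 5 sodium channel alpha subunits tested passed in any comparison with control in limma. At an unadjusted p of 0.05 Scn2a alone passed, with the proteins and with the secretome, where 19.8% and 16.8% of all genes did. All 5 differences lay below zero with the proteins (median -0.24) and with the secretome (median -0.42), beside 4 of 5 with EV (median -0.04). The medians without control library 2 were -0.58, -0.68 and -0.35 in that order, with all 5 below zero for each product. Scn2a read 77.9, 64.4 and 93.3 TPM in control, 59.3, 83.3 and 86.9 with EV, 49.6, 54.6 and 57.5 with the proteins and 55.8, 46.1 and 55.7 with the secretome. Both products lay below control without overlap, with differences of -0.49 (adjusted p = 0.173) and -0.54 (adjusted p = 0.166). With the replicate block in the fit of 12 libraries, Scn2a passed for both (adjusted p = 0.0377 and 0.0347), and over its 18 alternatives the adjusted p reached 0.412 and 0.477. That block rests on a pairing by number that the correlations did not bear out for the proteins and control. Without control library 2 and EV library 1 together the secretome value passed as well (adjusted p = 0.0472).

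The other alpha subunits overlapped between groups. Scn3a, the embryonic subunit, stood at 28.7 ± 10.8 TPM in control and 20.0 ± 3.13 with the secretome. Scn8a, the subunit of mature nodes and initial segments, stood at 17.8 ± 4.58 and 15.1 ± 2.45 TPM, and Scn1a, the subunit of fast-spiking interneurons that is mutated in Dravet syndrome, at 6.80 ± 2.41 and 4.38 ± 1.05 TPM. Scn2a made up 59.6% ± 4.66 of the summed level of the family in control, 59.1% ± 4.99 with EV, 55.7% ± 2.96 with the proteins and 56.6% ± 1.19 with the secretome.

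None of the alpha1 and alpha2delta calcium channel genes tested passed in limma. Among the 5 high-voltage alpha1 subunits the differences from control ran from -0.04 to 0.04 with EV, from -0.33 to 0.03 with the proteins and from -0.28 to 0.07 with the secretome. With control library 2 left out they ran from -0.22 to -0.16, from -0.49 to -0.14 and from -0.45 to -0.11. All 5 then lay below zero for each product, and none passed (lowest adjusted p = 0.325). Other alternatives moved the EV differences up, to at most 0.15 for Cacna1a, 0.12 for Cacna1b, 0.26 for Cacna1c, 0.15 for Cacna1d and 0.23 for Cacna1e. The sign of the EV differences thus depended on the alternative. Cacna1b, the N-type channel of presynaptic terminals, stood at 24.4 ± 5.92 TPM in control, 24.0 ± 4.53 with EV, 22.9 ± 1.48 with the proteins and 22.1 ± 2.55 with the secretome. For Cacna1a, the P/Q-type channel, the difference with EV was 0.01 with a 95% interval from -0.40 to 0.42. The L-type genes Cacna1c and Cacna1d, which link activity to transcription, gave EV differences of -0.04 (interval -0.59 to 0.52) and -0.01 (interval -0.44 to 0.42).

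The low-voltage T-type subunits gave differences between -0.29 and 0.23 over the 3 products. The alpha2delta subunit Cacna2d1 stood at 85.7, 88.7, 90.0 and 88.6 TPM in control, EV, proteins and secretome, with SDs of 26.2, 26.0, 9.32 and 11.6 TPM. Leaving out control library 2 moved its differences from 0.06 to -0.22 with EV, from 0.14 to -0.13 with the proteins and from 0.11 to -0.17 with the secretome, none of which passed. Other alternatives moved them up, to at most 0.29, 0.38 and 0.34 in that order, and none passed there either. Against control, 1 of the 11 calcium channel genes passed an unadjusted p of 0.05, Cacna2d3 with the secretome (-0.31, adjusted p = 0.271), where 16.8% of all genes did. Between products, Cacna1h was lower with EV than with the secretome at that level (-0.34, adjusted p = 0.502).

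Of the 12 Kv1 to Kv4 alpha subunits tested, Kcna1 and Kcna4 rose with the proteins and with the secretome, and none fell. Kcna1 encodes Kv1.1, the low-threshold potassium channel of axons that restrains repetitive firing. It read 2.93, 1.46 and 2.99 TPM in control, 3.15, 3.54 and 4.88 with EV, 10.8, 15.2 and 13.0 with the proteins and 8.60, 8.30 and 7.69 with the secretome. The protein libraries were highest and every treated library lay above the highest control library. The difference from control was 2.06 ± 0.23 with the proteins (adjusted p = 0.000331) and 1.46 ± 0.23 with the secretome (adjusted p = 0.00481). With EV it was 0.50, with an unadjusted p of 0.0485 and an adjusted p of 1.0. Each of the called values was lost in 1 of 18 alternatives, the 6-library fit with the replicate block (adjusted p up to 0.0697 and 0.0913).

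Kcna4 encodes Kv1.4, a rapidly inactivating A-type channel of axons and terminals. It read 4.64, 2.72 and 4.89 TPM in control, 3.85, 5.29 and 6.82 with EV, 8.99, 8.36 and 9.52 with the proteins and 10.6, 10.5 and 7.98 with the secretome. The lowest protein and secretome libraries lay above the highest EV library. Kcna4 rose by 1.02 ± 0.23 with the proteins (adjusted p = 0.0212) and by 1.11 ± 0.23 with the secretome (adjusted p = 0.0204). The calls were lost in 6 and 7 of 18 alternatives, those without control library 1 or 2 among them, with adjusted p up to 0.152 and 0.142.

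RefSeq entries for the promoters of the genes that rose were at hand for Kcna4, Kcns3 and Kcnj4, and they are shown because these genes moved the same way and their upstream sequences differ in composition. Each line runs from 250 bases before to 50 bases after the start of the gene in the GRCr8 build, and capitals mark every GC box (GGGCGG, either strand). The Kcna4 window (chr3:114215086-114215385, plus strand) holds 41.7% G and C and no GC box. The Kcns3 windows of its 2 listed starts (chr6:39584056-39584355 and chr6:39583345-39583644, minus strand) hold 58.3% and 74.3%, and the Kcnj4 window (chr7:112954498-112954797, minus strand) 65.7%, beside a median of 51.7% over all 33469 promoter entries. Those entries include genes not tested here, and GC boxes were more frequent in the entries of tested genes than in all.
Kcna4: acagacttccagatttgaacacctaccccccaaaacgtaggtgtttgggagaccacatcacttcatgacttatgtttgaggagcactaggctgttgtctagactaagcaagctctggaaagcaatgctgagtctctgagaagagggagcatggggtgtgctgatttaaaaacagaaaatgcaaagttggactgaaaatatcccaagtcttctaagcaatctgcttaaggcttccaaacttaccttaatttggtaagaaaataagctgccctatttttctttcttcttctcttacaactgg
Kcns3, first start: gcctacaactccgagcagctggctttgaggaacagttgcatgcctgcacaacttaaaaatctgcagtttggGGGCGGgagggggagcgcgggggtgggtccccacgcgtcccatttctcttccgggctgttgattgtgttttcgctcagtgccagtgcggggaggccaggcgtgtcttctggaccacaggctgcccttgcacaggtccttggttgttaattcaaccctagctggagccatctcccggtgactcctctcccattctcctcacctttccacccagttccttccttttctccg
Kcns3, second start: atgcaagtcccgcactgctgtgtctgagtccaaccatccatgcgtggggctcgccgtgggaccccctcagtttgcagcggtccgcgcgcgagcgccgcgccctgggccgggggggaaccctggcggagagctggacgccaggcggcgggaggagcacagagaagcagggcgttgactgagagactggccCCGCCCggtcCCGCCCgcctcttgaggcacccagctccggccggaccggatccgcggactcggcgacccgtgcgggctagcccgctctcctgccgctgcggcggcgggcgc
Kcnj4: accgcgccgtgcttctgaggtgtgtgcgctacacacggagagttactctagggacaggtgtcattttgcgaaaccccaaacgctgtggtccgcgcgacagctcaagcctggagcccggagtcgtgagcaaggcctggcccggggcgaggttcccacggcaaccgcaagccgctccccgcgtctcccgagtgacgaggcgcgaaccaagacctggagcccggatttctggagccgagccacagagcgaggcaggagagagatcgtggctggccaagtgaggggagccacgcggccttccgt

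None of these 4 windows held a cyclic AMP response element (TGACGTCA), an AP-1 motif (TGANTCA), an E-box (CACGTG) or a TATA box (TATAAA), read on both strands. Entries were found for 52 of the 83 channel genes, with 59 starts between them. A GC box lay in 55.9% of these 59, beside 62.8% of the 10069 entries of all genes tested and 33.1% of all entries. No channel entry held a TATA box or a cyclic AMP response element, beside 6.52% and 3.14% of the entries of all genes tested. An AP-1 motif and an E-box each lay in 1.69% of the channel entries, beside 4.38% and 9.10% of the entries of all genes tested. A match of letters is a description of the window and not evidence of binding.

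The remaining Kv1 genes lay lower or level. Kcna2, the usual partner of Kv1.1, stood at 9.33 ± 2.72 TPM in control, 9.05 ± 3.11 with EV, 5.92 ± 0.663 with the proteins and 6.10 ± 1.24 with the secretome, which did not pass (adjusted p = 0.331 and 0.399). Kcna6, the most abundant of the family, read 21.8, 19.0 and 21.7 TPM in control and 24.1, 14.4 and 13.5 TPM with the proteins, which overlap. In the summed level of the 4 Kv1 genes Kcna1 made up 6.55% ± 1.45 in control, 9.97% ± 1.30 with EV, 29.0% ± 6.35 with the proteins and 20.6% ± 1.89 with the secretome. The Kcna6 share was 57.4% ± 5.95, 52.9% ± 10.1, 37.9% ± 9.78 and 40.1% ± 2.99 in the same order.

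Among Kv3 and Kv4, Kcnd3, an A-type channel of dendrites, read 33.3, 23.1 and 28.7 TPM in control and 36.9, 41.6 and 34.5 TPM with the proteins. The groups did not overlap, and the difference of 0.44 did not pass (adjusted p = 0.0846). For Kcnc1, a fast channel of interneurons, the EV difference was -0.01 with an interval from -0.34 to 0.31.

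The modifier subunits form no channel alone and alter Kv2 channels. Of the 6 tested, Kcns3, which is enriched in parvalbumin interneurons, rose with the proteins and with the secretome. Kcns3 read 2.13, 1.73 and 1.71 TPM in control, 2.06, 1.89 and 2.65 with EV, 4.33, 4.21 and 3.59 with the proteins and 6.12, 3.73 and 4.90 with the secretome. The difference was 0.84 ± 0.19 with the proteins (adjusted p = 0.0213) and 1.05 ± 0.19 with the secretome (adjusted p = 0.0103). It lies near the low end of the tested levels, where adding 1 TPM shrinks a fold change. The protein call was lost in 8 of 17 alternatives (adjusted p up to 0.195), including each of the 6 that leave out 1 library, and the secretome call in 3 of 17 (up to 0.106), including that without secretome library 3.

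Kcng1, another modifier, shows what 1 replicate can do. It stood at 17.3, 15.8 and 17.8 TPM in control, 22.6, 16.3 and 16.9 with EV, 40.8, 21.6 and 17.4 with the proteins and 36.2, 14.7 and 19.6 with the secretome. In all 3 treated groups the library numbered 1 was the highest, by the most with the proteins and the secretome, and the other treated libraries lay between 14.7 and 21.6 TPM beside 15.8 to 17.8 TPM in control.

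**Figure D4:**
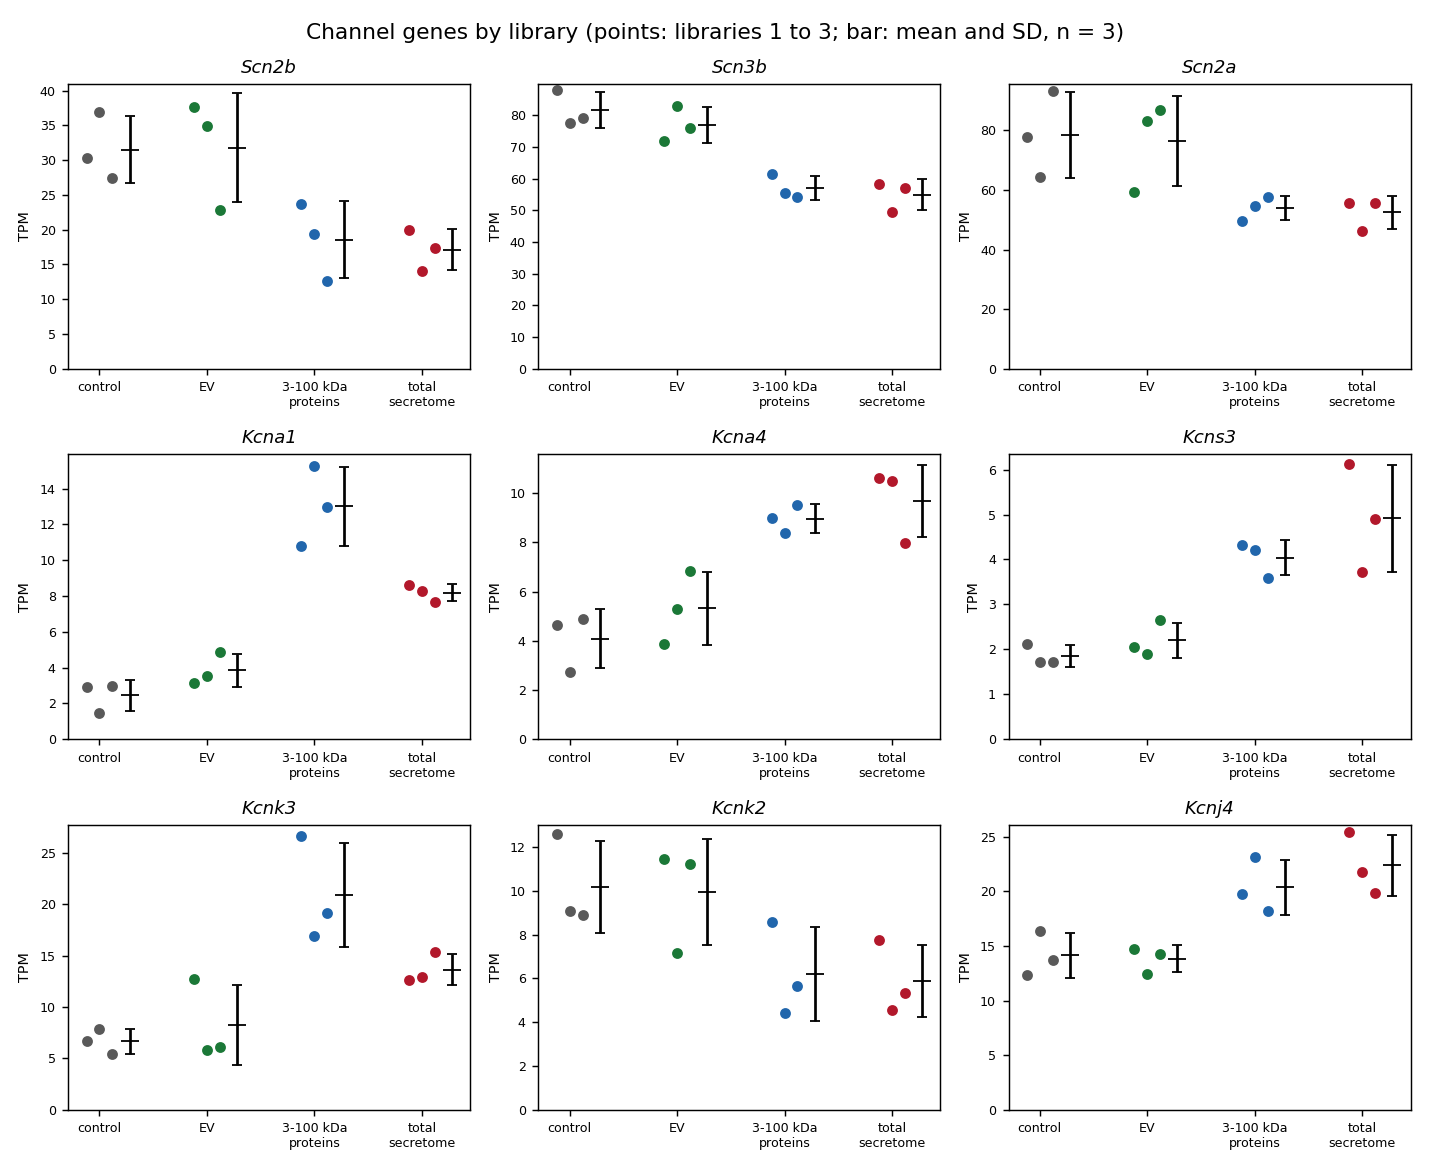
Level (vertical axis, TPM, from 0) of 9 channel genes in every library of the 4 groups (horizontal axis); coloured points are libraries 1 to 3 and black bars the mean ± SD (n = 3). Kcna1, Kcna4, Kcns3 and Kcnj4 lie above control with the proteins and the secretome, Scn2b, Scn3b, Scn2a and Kcnk2 lie below it, and Kcnk3 has 1 EV library at 12.7 TPM.

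None of the 4 Kv7 genes tested, whose channels carry the M-current that damps excitability, passed in a comparison with control in limma, and 0 had an unadjusted p under 0.05. All 4 differences lay below zero with the proteins (median -0.12) and the secretome (median -0.27), and 2 of 4 with EV. Kcnq3 stood at 29.9 ± 15.6 TPM in control, 29.3 ± 13.7 with EV, 24.7 ± 4.78 with the proteins and 22.0 ± 7.26 with the secretome, so the means differed by less than the SD of the control libraries. Without control library 2 its difference from control went from 0.05 to -0.49 with EV, from -0.08 to -0.62 with the proteins and from -0.29 to -0.83 with the secretome, and none passed (adjusted p = 0.976, 0.427 and 0.293). All 4 Kv7 differences then lay below zero with EV as well, with medians of -0.30, -0.37 and -0.42 for the products in that order. None of the 7 Kcnh genes (the EAG, ERG and ELK channels) passed either, again with 0 at an unadjusted p of 0.05. The highest of them, Kcnh3, stood at 17.0 ± 2.54, 15.3 ± 2.50, 12.9 ± 2.86 and 13.2 ± 1.55 TPM in control, EV, proteins and secretome.

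The 9 accessory subunits of Kv channels gave no call in limma. Of them, 0, 2 and 2 had an unadjusted p under 0.05 with EV, the proteins and the secretome, beside 4.08%, 19.8% and 16.8% of all genes. Their summed level was 133 ± 8.78 TPM in control, 129 ± 7.40 with EV, 111 ± 7.55 with the proteins and 111 ± 14.8 with the secretome, and 7 of 9 differences lay below zero with each of the latter products. Kcnab3, a cytoplasmic beta subunit of Kv1 channels, read 2.09, 1.59 and 1.01 TPM in control, 0.467, 0.207 and 0.322 with the proteins and 1.35, 1.15 and 1.32 with the secretome. The protein libraries lay below all others, and the difference of -0.91 missed the threshold (adjusted p = 0.0585), passing in 4 of 17 alternatives (0.0228 to 0.217).

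Kcnip2, which speeds the recovery of A-type channels, read 14.8, 11.5 and 14.7 TPM in control, 6.47, 9.86 and 3.90 with the proteins and 20.3, 8.50 and 4.49 with the secretome. The secretome libraries reached above and below the whole range of control and EV, and neither difference passed (adjusted p = 0.195 and 0.630). Kcnip3, the calcium sensor also known as DREAM, read 7.63, 6.20 and 6.50 TPM in control, 7.97, 8.71 and 9.65 with EV and 10.2, 8.27 and 10.9 with the secretome. It lay above control without overlap in both, with differences of 0.33 (adjusted p = 1.0) and 0.49 (adjusted p = 0.125). With the proteins Kcnip3 read 9.10, 8.77 and 6.51 TPM, which overlapped control (difference 0.25, adjusted p = 0.440).

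Of the 9 inward rectifiers, Kcnj4 rose with the secretome. It encodes Kir2.3, a strong rectifier that holds neurons of the forebrain near rest. Kcnj4 read 12.3, 16.4 and 13.7 TPM in control, 14.8, 12.4 and 14.3 with EV, 19.8, 23.2 and 18.2 with the proteins and 25.5, 21.8 and 19.9 with the secretome. Every protein and secretome library lay above all control and EV libraries. The difference was 0.65 ± 0.15 with the secretome (adjusted p = 0.0305) and 0.53 ± 0.15 with the proteins (adjusted p = 0.0538). The secretome call was lost in 8 of 18 alternatives (adjusted p up to 0.170), including use of the deposited values with no rescaling and each fit that left out control library 1 or 3 or 1 secretome library. The protein value passed in 3 of 18 (0.0267 to 0.295).

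The gene of lowest p in the vesicle comparison was also an inward rectifier. Kcnj12, another Kir2 channel, read 3.14, 4.16 and 2.99 TPM in control, 2.36, 2.09 and 1.32 with EV, 2.50, 2.56 and 2.89 with the proteins and 2.56, 2.34 and 2.37 with the secretome. All treated libraries lay below all control libraries, and the EV difference of -0.61 ± 0.20 did not pass (unadjusted p = 0.0111, adjusted p = 0.619). Kcnj9, a G-protein-gated channel, read 6.08, 6.13 and 4.99 TPM in control and 5.41, 2.67 and 3.72 with EV. Its level was 3.65, 2.14 and 3.66 TPM with the proteins and 4.35, 2.51 and 3.00 with the secretome, differences of -0.69 and -0.65 that did not pass (adjusted p = 0.164 and 0.229). The astrocytic Kcnj10 read 10.9, 5.59 and 9.37 TPM in control and 4.09, 8.32 and 7.19 with EV, with an interval for the EV difference from -1.03 to 0.32. Its usual partner Kcnj16 was under the level tested.

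The 2-pore potassium (K2P) channels set the resting potential. Kcnk3, which encodes the acid-sensitive leak channel TASK-1, read 6.67, 7.82 and 5.45 TPM in control and 12.7, 5.85 and 6.13 with EV. It read 26.6, 16.9 and 19.2 TPM with the proteins and 12.6, 12.9 and 15.4 TPM with the secretome. The protein libraries lay above all others, whereas the secretome libraries lay above control and level with EV library 1. Kcnk3 rose by 1.53 ± 0.28 with the proteins (adjusted p = 0.00754), a call lost in 1 of 18 alternatives (up to 0.102), and its secretome difference of 0.96 ± 0.28 did not pass (adjusted p = 0.0882). Without control library 2 and EV library 1 together the secretome value passed (adjusted p = 0.0198), the only one of its 18 alternatives that did (up to 0.278). In the GRCr8 annotation Kcnk3 overlaps an uncharacterised non-coding gene. The labels name a strand-specific library and the study's methods another kit, and whether the quantification used strand is not given, so it is not known whether reads of the pair were told apart.

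Kcnk2, which encodes the mechanosensitive and lipid-sensitive channel TREK-1, read 12.6, 9.07 and 8.89 TPM in control and 11.5, 7.14 and 11.2 with EV. It read 8.58, 4.42 and 5.64 TPM with the proteins and 7.75, 4.57 and 5.32 with the secretome, below control without overlap. The differences of -0.63 and -0.69 did not pass (adjusted p = 0.201 and 0.189). They passed with the replicate block in the fit of 12 libraries (adjusted p = 0.0262 and 0.0252) and in no other alternative (up to 0.571 and 0.533). The block pairs libraries by number, a pairing that the correlations did not bear out for the proteins and control. The share of Kcnk3 in the summed level of the 8 K2P genes was 12.8% ± 4.53 in control, 15.2% ± 8.24 with EV, 30.2% ± 6.92 with the proteins and 23.3% ± 2.22 with the secretome. That of Kcnk2 was 19.0% ± 3.69, 18.0% ± 4.29, 8.98% ± 2.96 and 10.1% ± 2.96.

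**Figure D5:**
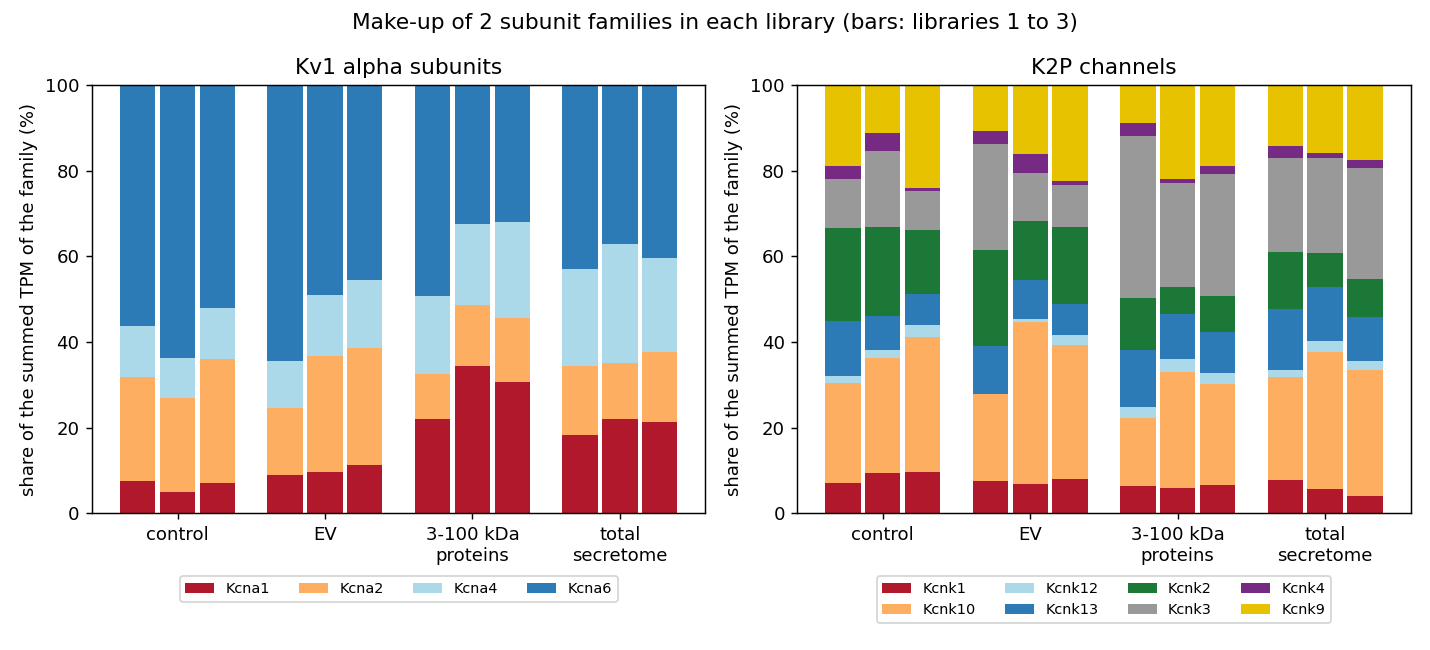
Share of each gene in the summed TPM of its family (vertical axis, %) in each of the 12 libraries, for the 4 Kv1 alpha subunits and the 8 K2P channels tested; bars within a group are libraries 1 to 3. The Kcna1 share goes from 6.55% in control to 29.0% with the proteins and the Kcnk3 share from 12.8% to 30.2%.

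None of the 8 genes of the calcium- and sodium-activated potassium channels passed in limma, and 0 had an unadjusted p under 0.05 against control. Kcnma1, the pore of the BK channel, stood at 16.5 ± 5.93, 18.0 ± 8.25, 15.4 ± 2.83 and 12.8 ± 2.09 TPM in control, EV, proteins and secretome. Its neuronal partner Kcnmb4 read 45.5, 39.6 and 31.7 TPM in control, 38.6, 23.7 and 19.5 with the proteins and 32.8, 27.1 and 21.2 with the secretome, with overlap and adjusted p of 0.273 and 0.338. The microglial SK4 gene Kcnn4 was under the level tested. Kcnrg, a regulator of potassium channel assembly outside the channel families, read 3.55, 2.88 and 3.80 TPM in control and 0.365, 0.904 and 3.32 with EV (difference -0.97, unadjusted p = 0.0229, adjusted p = 0.906).

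The products were also set against each other. Against the proteins, 3 genes were lower with EV (3.61%, against 1.47% of all genes called in either direction and 1.25% called lower), and none was higher. They included Kcna1 by -1.56 ± 0.23 (adjusted p = 0.00731) and Kcnk3 by -1.32 ± 0.28 (adjusted p = 0.0449). Kcna1 kept this call in 15 of 18 alternatives (adjusted p up to 0.0594) and Kcnk3 in 9 (up to 0.263), both being lost without protein library 2 or 3. Kcnk3 was also lost without protein library 1, EV library 2 or EV library 3. Without protein library 2 or 3, 1 gene passed (1.20% of the 83, beside 0.451% and 0.435% of all genes). Without protein library 1, EV library 2 or EV library 3, 2 genes passed (2.41%, beside 1.15%, 0.731% and 0.684% of all genes). The groups did not overlap for 18 genes, 21.7% against 14.0% of all genes.

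Against the secretome, 1 gene was called, lower with EV (1.20% of the 83, beside 0.451% of all genes called in either direction and 0.358% called lower). The EV differences of Kcna1 (-0.95), Kcns3 (-0.89) and Kcnj4 (-0.67) did not pass, with adjusted p of 0.121, 0.0888 and 0.0912.

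Between the secretome and the proteins no channel gene passed in limma, nor did any other gene (0.0%), and 2 of the 83 had an unadjusted p under 0.05 (2.41%, against 1.94% of all genes). These were Kcnab3, higher by 0.77 with the secretome (interval 0.21 to 1.33), and Kcna1, lower by 0.60 (interval -1.10 to -0.11). For Kcnk3 the difference was -0.57 with an interval from -1.18 to 0.04. The 95% interval lay within 1 log2 unit of zero for 67 of the 83 genes.

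Beyond the genes taken by name, 35 companions of these channels were listed, among them the calcium channel beta subunits, the pacemaker channels, the leak channel Nalcn, intracellular fibroblast growth factors that bind sodium channels, and ankyrins and spectrin of the initial segment. Of these, 31 were tested and none passed in any of the 6 comparisons in limma, with 0, 3 and 4 of them (0.0%, 9.68% and 12.9%) at an unadjusted p of 0.05 for EV, the proteins and the secretome against control, beside 4.08%, 19.8% and 16.8% of all genes. Their median difference from control was -0.03 with EV, -0.10 with the proteins and -0.11 with the secretome, beside 0.00, -0.02 and -0.01 over all genes. The lowest p belonged to Lgi1, a secreted protein that regulates Kv1 channels, at -0.72 with the secretome (adjusted p = 0.0582), and it was named after its values were seen.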

How the data were processed

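RNA-seq of 12 libraries was read from gene tables in TPM. The authors trimmed the reads (Trimmomatic, Cutadapt), estimated transcript levels in Salmon on the rat genome (build Rnor_6.0 per the labels) and summed them to genes with tximport, so the deposited TPM keep no counts and no depth. The library kit of the labels, which is strand-specific, differs from that in the study's methods, and use of strand in the quantification is not given in the sources used here. Because counts are needed for the count model of the study, limma 3.58.1 in R 4.3.3 was fitted to log2(TPM + 1) of all 12 libraries, with eBayes trend, for the 12861 genes with a mean of at least 1 TPM, after median-of-ratios rescaling (factors 0.909 to 1.08). Rows of one name were summed. P-values were adjusted by Benjamini-Hochberg over all genes tested, with a threshold of 0.05. Levels are deposited TPM, and differences are on the log2(TPM + 1) scale, on which the fold change of a low gene comes out too small. The procedure was tested on simulated data.

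The members, role groups and lists of companions and markers were chosen with earlier results of these data known. Named were all genes with an adjusted p under 0.05 in any comparison, the 8 of lowest p in each comparison with control, the 2 of highest level in each role group and genes of standing role in cortical cells. A few shown as contrasts (Kcng1, Kcna6, Kcna2) were chosen with their values in view. Kcnd2 was not analysed here. Some genes that the rule names are counted in the totals and are not reported here. The replicate numbers of the titles were checked as pairs by the correlation of same-numbered deviations. Every pair was over 0.1 for secretome and control (0.22, 0.13 and 0.14), EV and proteins (0.54, 0.24 and 0.26), EV and secretome (0.24, 0.18 and 0.18) and secretome and proteins (0.34, 0.17 and 0.19). This was not so for EV and control (-0.05, -0.15 and 0.45) or proteins and control (0.00, -0.21 and 0.21). The study names a day covariate for control and EV without tying numbers to days, so the pairing comes from these data. Promoters and their motifs came from RefSeq (GRCr8), matched by symbol.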

Additional observations from a re-analysis of the deposited data

How the results depend on the processing

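No called difference changed sign in any alternative. Over 300 differences of named genes, 16 were called and 3 of these were called in every alternative. Another 9 were called in at least 1 alternative only. The number of channel genes called moved by more than 1.5 times where each comparison was fitted on its own 6 libraries, to 3 for the proteins, 2 for the secretome, 1 for EV against the proteins and 0 for EV against the secretome. With the replicate block in those fits it was 1, 1, 2 and 0, and with the block in the fit of 12 libraries 8, 9, 3 and 1. For EV against the proteins these were 1.20%, 2.41% and 3.61% of the 83, beside 0.412%, 0.653% and 2.37% of all genes. For EV against the secretome they were 0.0%, 0.0% and 1.20%, beside 0.132%, 0.0% and 0.832%. EV against control and secretome against proteins gave 0 under every alternative. Leaving out each library in turn gave 3 to 6 calls for the proteins (3.61% to 7.23% of the 83, beside 3.11% to 5.90% of all genes). It gave 3 to 5 for the secretome (3.61% to 6.02%, beside 1.58% to 3.69%) and 1 to 3 for EV against the proteins (1.20% to 3.61%, beside 0.435% to 1.15%). For EV against the secretome it gave 1 to 1 (1.20%, beside 0.140% to 0.288%). EV against control and secretome against proteins gave 0 to 0, beside 0.241% to 0.482% and 0.0% to 0.00778% of all genes. Another pseudocount (0.1 or 0.5), filter, rescaling or treatment of rows of one name left each count within 1.5 times. An alternative chosen after seeing the data left out control library 2 and EV library 1 together and gave 8 calls for the proteins, 8 for the secretome and 0 for EV against control. These were 9.64%, 9.64% and 0.0% of the 83, beside 9.14%, 7.17% and 0.272% of all genes in that fit. The cause of these changes was not tested. With no depth, a difference in a gene near 1 TPM cannot be set against its counting error.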
